A study of Homo sapiens with 6 samples.

Results

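The 10 genes described here are among the cyclins and cyclin-dependent kinases that drive the mammalian cell division cycle. They are the cyclin genes CCND1, CCND3, CCNE1, CCNE2, CCNA2, CCNB1 and CCNB2 and the kinase genes CDK1, CDK2 and CDK4. They were found by gene symbol in the deposited count table, where all 10 were present among 35474 listed genes and all 10 passed the filter on low counts, which kept 20776 genes. The samples were A549 cells, an established line of human lung adenocarcinoma, transfected with an siRNA against BAP18 (siBAP18, 3 libraries) or with a non-specific siRNA (siCtrl, 3 libraries) and harvested for RNA 48 h later. The groups shared the cell line, the transfection and the time, and differed in the siRNA. BAP18, listed under the gene symbol C17orf49, is a reader subunit of chromatin complexes. Which BAP18 duplex the RNA-seq cells received is not given in the sources used here, all values come from 1 cell line, and a transient knockdown leaves part of the transcript in place.

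A cyclin binds and activates a cyclin-dependent kinase, and the active pair phosphorylates the proteins that carry the cell from one phase to the next. D-type cyclins with CDK4 and its relative CDK6 start the inactivation of the retinoblastoma protein in G1, E-type cyclins with CDK2 take the cell into S phase, and cyclin A with CDK2 or CDK1 and the B-type cyclins with CDK1 serve S phase, G2 and mitosis. Transcription of the later cyclins rises and falls with the cycle under E2F factors, the DREAM and MuvB complexes, B-MYB, FOXM1 and NF-Y, while CDK4 and the D-type cyclins answer more to growth signals. In RNA from a whole culture, a smaller share of cells in a given phase and less transcript per cell cannot be told apart.

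The libraries held 42094524 to 56548620 counts assigned to genes. C17orf49 was 14.0 to 16.1 CPM (counts scaled to a common library size) in siCtrl and 2.21 to 2.66 in siBAP18 (log2 fold change −2.65, adjusted p = 7.31e-16). It shares 1163 exonic bases on its own strand with the readthrough gene RNASEK-C17orf49, which went from 41.1 to 34.8 CPM (−0.24, adjusted p = 0.0138), and 1466 with MIR497HG on the other strand, which went from 8.23 to 1.41 CPM (−2.57, adjusted p = 3.92e-13). Reads in the shared bases may have been split or left out in counting, so the depth of the knockdown is uncertain. All 6 epithelial markers were detected in every library (summed CPM 21150 to 22980 in siCtrl and 16890 to 21070 in siBAP18). Of these, 4 fell, among them CDH1, the gene of E-cadherin (−1.32, adjusted p = 3.81e-14). KRT7 rose (0.43, adjusted p = 5.95e-05), and 1 did not pass. Over all genes tested, 25.1% fell and 24.5% rose (edgeR quasi-likelihood, adjusted p under 0.05). Of 6 genes abundant in A549 cells, 5 fell (median log2 fold change −0.70), and their summed CPM was 21230 to 21930 in siCtrl and 13830 to 14590 in siBAP18. Most of these markers differed between the groups, as did 49.6% of all genes tested, and their part in the results on the cyclins and kinases was not tested. The summed CPM was at most 13.3 over 5 fibroblast markers, 1.66 over 4 immune markers and 1.17 over 5 endothelial markers in any library, and DCN, PTPRC and CD3E of those lists were not analysed here. Mitochondrial transcripts took 6.86 to 7.43% of counts in siCtrl and 5.27 to 6.14% in siBAP18, so that share moved with the groups, and its part in the results on the cyclins and kinases was not tested.

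Of the 10 genes, 8 fell after BAP18 knockdown, CDK4 rose, and CCNB2 did not pass the test (edgeR quasi-likelihood, adjusted p under 0.05). Over all genes tested, 25.1% fell and 24.5% rose at the same threshold, and 49.6% passed in either direction. The share that fell among the 10 was above that background, and the share that rose was below it. The 10 genes were chosen with earlier results of these data known, so these shares do not stand for all cyclins and kinases of the cycle. Of 5 others, 3 were tested, and 0 fell and 1 rose (median log2 fold change 0.20). CDK1, CCNE2 and CCND3 also passed a log2 fold change of −1, against 3.74% of all genes in that direction, and no cyclin or kinase passed +1, where 4.72% of all genes did (8.46% in either direction). The 3 libraries of each group did not overlap for 9 of the 10 genes, 8 lying lower and 1 higher in siBAP18. Over all genes tested, 29.0% lay wholly lower and 27.6% wholly higher, 56.6% in all. The median log2 fold change of the 10 genes was −0.73, and that of all genes tested was 0.001. Log2 fold changes ran from −1.32 for CCNE2 to 0.35 for CDK4. The median was −0.79 for the D-type cyclins with CDK4 (2 fell, 1 rose), −0.88 for the E-type cyclins with CDK2 (3 of 3 fell) and −0.44 for the A- and B-type cyclins with CDK1 (3 of 4 fell).

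**Figure D1:**
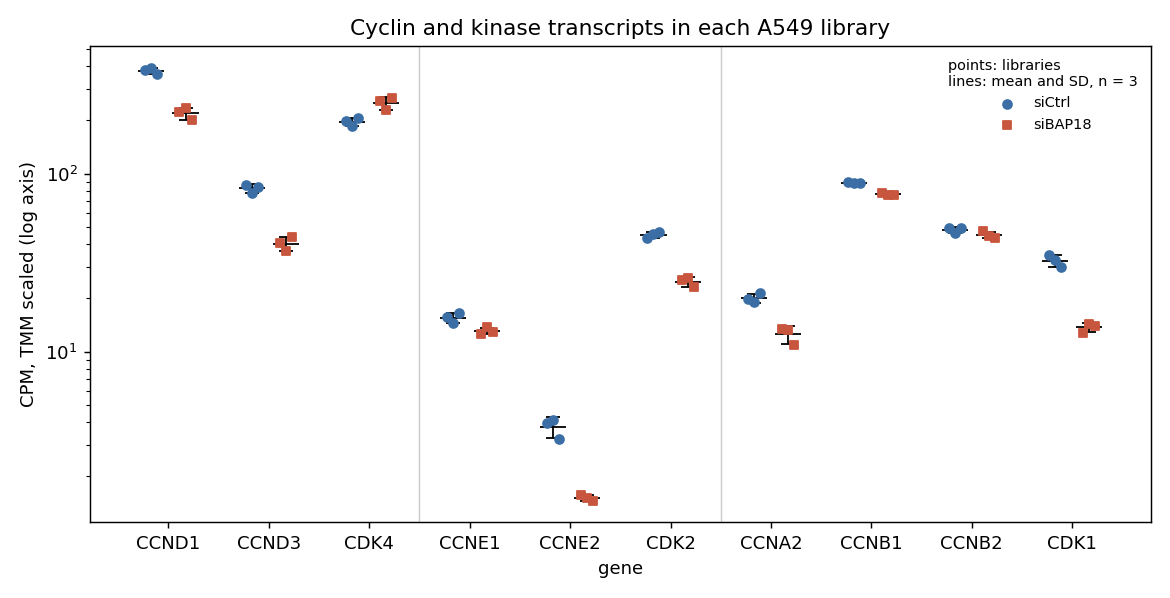
CPM on a log axis for each of the 10 cyclin and kinase genes, with a point per library (circles siCtrl, squares siBAP18) and lines for the mean and SD of the 3 libraries. The siBAP18 points lie below all siCtrl points for 8 genes, and above them for CDK4, while for CCNB2 1 siBAP18 point lies among the siCtrl points and 2 lie below them.

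Of the genes described here, the D-type cyclins CCND1 and CCND3 fell, while the kinase CDK4 rose. The third D-type cyclin, CCND2, and the related kinase CDK6 are given below with the lists. CCND1, the main cyclin of G1 in many epithelial cells, was at 383, 391 and 361 CPM in siCtrl replicates 1, 2 and 3 and at 222, 232 and 199.6 in siBAP18 replicates 1, 2 and 3, and values below follow the same order. The highest siBAP18 library therefore lay far below the lowest siCtrl library. The mean went from 378 ± 15.7 to 218 ± 16.8 (SD, n = 3), a log2 fold change of −0.79 (SE 0.0701, 95% interval −0.94 to −0.65, adjusted p = 8.03e-10). CCND1 spans chr11:69641087-69654474 on the plus strand of GRCh38 and shares 497 exonic bases with ORAOV1 on the other strand, whose own log2 change was 0.03 (adjusted p = 0.746). CCND3, the D-type cyclin best known from blood and muscle cells (chr6:41934933-42050357, minus strand), was 86.4, 77.7 and 84.2 CPM in siCtrl and 40.8, 36.6 and 44.0 in siBAP18. Its siBAP18 level was 48.8% of the siCtrl level (log2 fold change −1.03, SE 0.0748, 95% interval −1.19 to −0.88, adjusted p = 2.26e-11). The interval spans −1, and without siBAP18 replicate 2 the log2 fold change was −0.97, so its place beyond the fold threshold rested on that library. The difference between the changes of CCND1 and CCND3 was not separated from the spread between libraries. The ratio of CCND1 to CCND3 in RPKM (reads per kilobase of exon, scaled to library size, a level per length) was 5.33, 6.05 and 5.15 in siCtrl and 6.54, 7.63 and 5.45 in siBAP18 (log2 difference 0.24, exact two-sided permutation p = 0.2).

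CDK4, a partner kinase of the D-type cyclins, was 197, 185 and 205 CPM in siCtrl and 255, 227 and 266 in siBAP18. All siBAP18 libraries lay above all siCtrl libraries. The mean went from 196 ± 9.75 to 249 ± 20.3 (SD, n = 3), which is 1.27 times the siCtrl level (log2 fold change 0.35, SE 0.0710, 95% interval 0.20 to 0.50, adjusted p = 2.06e-04). CDK4 (chr12:57747727-57756013, minus strand) shares 1369 of its 3168 exonic bases with TSPAN31 on the other strand, whose own log2 change was 0.31 (adjusted p = 5.51e-04). The libraries were made strand-specific with dUTP, but whether the counting used strand is not given in the sources used here. Without it, reads in the shared exonic bases cannot be told apart between the 2 genes, as for the other opposite-strand neighbours named here.

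The E-type cyclins and CDK2 all fell, CCNE1 least. CCNE1, the E-type cyclin with the higher level in these cells (chr19:29811898-29824308, plus strand), was 15.6, 14.5 and 16.5 CPM in siCtrl and 12.6, 13.7 and 12.9 in siBAP18. The groups lay close together without overlapping. The mean went from 15.5 ± 0.982 to 13.1 ± 0.559 (SD, n = 3; log2 fold change −0.25, SE 0.0834, 95% interval −0.42 to −0.08, adjusted p = 0.0157). This call depended on single libraries, since the adjusted p was 0.0517 without siCtrl replicate 1, 0.0987 without siCtrl replicate 3 and 0.0747 without siBAP18 replicate 1. CCNE2, the second E-type cyclin and a known E2F target (chr8:94879770-94896678, minus strand), was the least abundant of the 10 genes, with counts of 211, 193 and 150 in siCtrl and 85, 88 and 59 in siBAP18. In CPM it was 3.97, 4.15 and 3.21 against 1.56, 1.51 and 1.46, so the siBAP18 libraries lay close together at 40.0% of the siCtrl level. The log2 fold change was −1.32 (SE 0.161, 95% interval −1.65 to −0.99, adjusted p = 1.95e-07), with an SE more than 1.5 times that of any other of the 10 genes. The interval just spans −1, as that of CCND3 does. CCNE2 shares 1629 of its 4397 exonic bases with INTS8 on the other strand, whose log2 fold change was −0.39 (adjusted p = 8.14e-04). On the log2(RPKM + 1) scale its change was −0.47, because the pseudocount is above its own RPKM in both groups.

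CDK2, the kinase of S phase entry (chr12:55966769-55972784, plus strand), was 43.3, 45.6 and 47.0 CPM in siCtrl and 25.2, 25.8 and 22.9 in siBAP18. Every siBAP18 library was well below every siCtrl library. The log2 fold change was −0.88 (SE 0.0725, 95% interval −1.03 to −0.73, adjusted p = 2.59e-10). The table also lists RP11-973D8.4 on the opposite strand, which shares 565 of the 3894 exonic bases of CDK2 and went from 41.1 to 22.4 CPM (log2 fold change −0.87, adjusted p = 5.08e-10). PMEL shares 89 bases with CDK2 and fell by 0.46 (log2, adjusted p = 0.0335). RP11-533O20.2 and RP11-347C18.5, which share 24 bases with CCND3 and 4 with CCNE2, were too low to be tested.

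**Figure D2:**
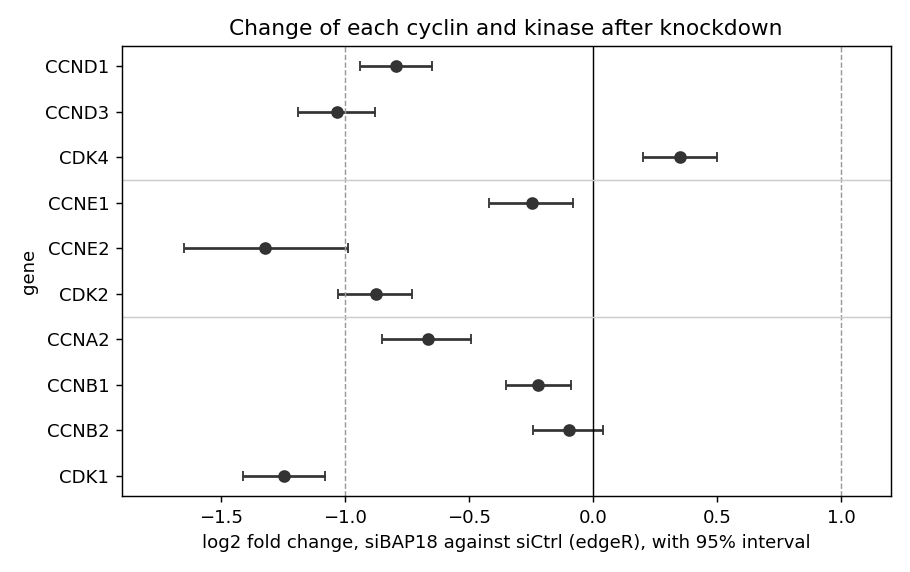
Log2 fold change, siBAP18 against siCtrl, of each of the 10 genes with its 95% interval from the edgeR fit, and dashed lines at −1 and 1. The points of CCNE2, CDK1 and CCND3 lie beyond −1, CDK4 alone lies above 0, and the interval of CCNB2 spans 0.

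Among the genes of S phase, G2 and mitosis, CDK1 and CCNA2 fell clearly, CCNB1 fell slightly, and CCNB2 had the smallest change of the 10. CDK1, the mitotic kinase (chr10:60778331-60794852, plus strand), was 35.0, 32.5 and 29.9 CPM in siCtrl and 12.8, 14.3 and 13.9 in siBAP18. It fell to 42.1% of the siCtrl level, from 32.5 ± 2.55 to 13.7 ± 0.818 CPM (SD, n = 3). The log2 fold change was −1.25 (SE 0.0803, 95% interval −1.41 to −1.08, adjusted p = 2.83e-12), and 1.75% of all genes tested had a lower one.

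CCNA2, the cyclin A of dividing somatic cells (chr4:121816444-121823933, minus strand), was 19.7, 18.9 and 21.2 CPM in siCtrl and 13.4, 13.3 and 10.9 in siBAP18. It fell to 63.0% of the siCtrl level (log2 fold change −0.67, SE 0.0878, 95% interval −0.85 to −0.49, adjusted p = 6.39e-07). It shares 254 exonic bases with EXOSC9 on the other strand (log2 fold change −0.31, adjusted p = 0.00318). The B-type cyclins, which CDK1 needs for its activity in mitosis, changed less. CCNB1 (chr5:69167010-69178245, plus strand) was 89.9, 88.8 and 88.6 CPM in siCtrl and 78.1, 75.4 and 75.9 in siBAP18, a log2 fold change of −0.22 (SE 0.0641, 95% interval −0.35 to −0.09, adjusted p = 0.0058). CCNB2 (chr15:59105078-59125045, plus strand) was 49.7, 46.4 and 49.4 CPM in siCtrl and 47.3, 44.8 and 43.7 in siBAP18. Its groups overlapped, and its log2 fold change of −0.10 (SE 0.0682, 95% interval −0.24 to 0.04) had an adjusted p of 0.245.

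The promoters of the 10 genes were searched for short elements known from cell cycle genes. The cell cycle genes homology region (CHR), through which the DREAM and MuvB complexes bind, was searched as TTTGAA or in its variant TTCGAA, the NF-Y element as CCAAT, and the E2F element as TTCCCGC or by the variants TTGGCGC and, with another core, TTCGCGC, each on both strands, in the windows from 250 bases before to 50 after a transcription start (RefSeq, GRCh38.p14). The table held windows for 7 of the 10 genes and none for CCND1, CCNE2 and CDK2. CCND3 had 3 windows and CDK1 had 2, which gives these genes more bases to match than the single window that the shares of all windows refer to. CHR letters were present in 2 of the 7 genes, CDK1 and CCNB2, and in 16.4% of all 35116 windows. CCAAT letters were present in 5 of 7 (34.6% of all windows), and both CHR and CCAAT in CDK1 and CCNB2 (6.38% of all windows). E2F letters were found in CDK1 and CCNB1 (11.0% of all windows), and not in CCNB2, CCND3, CCNE1, CCNA2 or CDK4. The 30-base stretches around each CHR match are shown because CDK1 and CCNB2, whose log2 fold changes were −1.25 and −0.10, were the 2 genes that held one, with the match in capitals and all letters on the gene's plus strand. The place of the match's first base is given for each, the last match reads TTTGAA on the minus strand, and the last 2 stretches overlap.
CCNB2, 29 bases before the start, chr15:59105105-59105134: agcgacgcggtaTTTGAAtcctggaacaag
CDK1, 161 bases before the first start, chr10:60778158-60778187: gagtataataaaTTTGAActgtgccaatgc
CDK1, 69 bases before the second start, chr10:60778397-60778426: ctgattggctgcTTTGAAagtctacgggct
CDK1, 13 bases before the second start, chr10:60778453-60778482: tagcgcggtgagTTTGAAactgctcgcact
CDK1, base 10 counting the second start as base 1, chr10:60778475-60778504: ctcgcacttggcTTCAAAgctggctcttgg
Each is a match of letters only, and binding was not measured in these files. No match in a window says only that these letters were not in it.

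**Figure D3:**
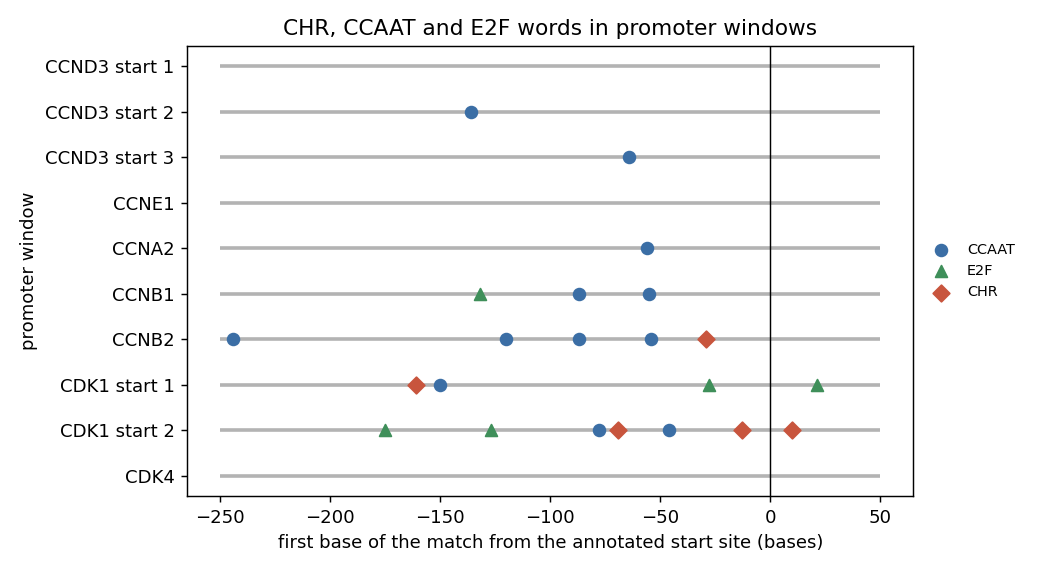
First base of each CHR (diamonds), CCAAT (circles) and E2F (triangles) match in the promoter windows of the 7 genes with a RefSeq window, in bases from the annotated start site, with a line per window. CHR marks appear in the windows of CDK1 and CCNB2 alone, and CCAAT marks in those of CCNA2, CCNB1, CCNB2, CCND3 and CDK1.

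Levels of different genes were compared per length, as RPKM. Bases shared with opposite-strand genes, most for CDK4 and CCNE2, may shift these levels, since the strand setting of the counting is not known. The order and the shares below carry that limit. In siCtrl the order was CCND1 (78.2 ± 3.87, SD, n = 3), CDK4 (61.6 ± 2.51), CCNB1 (34.8), CCNB2 (17.3), CCND3 (14.2), CDK2 (11.6), CDK1 (8.24), CCNA2 (7.10), CCNE1 (6.07) and CCNE2 (0.857), and the libraries of neighbours in this order did not overlap. In siBAP18 CDK4 stood first (78.6 ± 4.10) and CCND1 second (45.3 ± 5.03), followed by CCNB1 (29.9) and CCNB2 (16.2). CCND3 (6.97) and CDK2 (6.35) overlapped there, and so did CCNE1 (5.13) with CCNA2 (4.49) and CCNA2 with CDK1 (3.49), above CCNE2 at 0.344. CDK1 thus moved from seventh to ninth place, below CCNA2 and CCNE1 by its mean. The summed RPKM of the D-type cyclins, CCND2 included, went from 92.4 ± 3.50 to 52.3 ± 4.67, and CCND1 made up 84.6% of it in siCtrl and 86.5% in siBAP18. The sum for the E-type cyclins went from 6.93 ± 0.217 to 5.47 ± 0.374, and CCNE2 made up 12.4 ± 2.08% and then 6.29 ± 0.369% of it. The summed RPKM of CDK1, CDK2 and CDK4 was 81.5 ± 2.17 in siCtrl and 88.5 ± 3.45 in siBAP18, but its make-up differed. CDK4 held 75.6 ± 1.07% of that sum in siCtrl and 88.9 ± 1.27% in siBAP18, CDK2 14.3% and 7.19%, and CDK1 10.1% and 3.95%.

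Ratios of RPKM within a library, which do not depend on scaling between libraries, were used to compare how far the cyclins and kinases moved. The groups were fully separate in 12 of the 13 pairs compared, and CCND1 to CCND3 was the exception. The share of separate pairs among other genes was not computed, and 56.6% of single genes tested lay apart. The pairs were chosen with earlier results known, and their ratios restate the changes of single genes given above. With 3 libraries a group the exact two-sided permutation test cannot go below p = 0.1, which each of those 12 pairs reached (adjusted p = 0.108 over the 13 pairs), so no pair passed 0.05. The ratio of CCND1 to CDK4 was 1.27, 1.39 and 1.16 in siCtrl and 0.571, 0.672 and 0.492 in siBAP18, a log2 difference of −1.14. By these values CCND1 was above CDK4 in every siCtrl library and below it in every siBAP18 library. CDK4 shares 1369 of its 3168 exonic bases with TSPAN31, so which of CCND1 and CDK4 stood higher is uncertain. The ratio of CCND3 to CDK4 had a log2 difference of −1.38. The ratio of CCNB1 to CDK1 was 3.95, 4.19 and 4.56 in siCtrl and 9.40, 8.07 and 8.37 in siBAP18, a log2 difference of 1.02. Each siBAP18 library thus held about 8 to 9 times as much CCNB1 as CDK1 per length. That of CCNB2 to CDK1 had a log2 difference of 1.15, and that of CCNB1 to CCNB2 of −0.12. The ratio of CCNA2 to CDK1 had a log2 difference of 0.57, and that of CCNA2 to CDK2 of 0.20. Relative to CDK2, CCNE1 was higher in siBAP18 (0.63) and CCNE2 lower (−0.44, or 0.32 with 1 added to each RPKM), and CCNE1 stood at 6.78, 6.02 and 8.84 times CCNE2 in siCtrl and at 13.9, 15.7 and 15.3 times in siBAP18 (log2 difference 1.07). Among the kinases, CDK1 was lower relative to CDK2 (−0.37) and to CDK4 (−1.59).

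**Figure D4:**
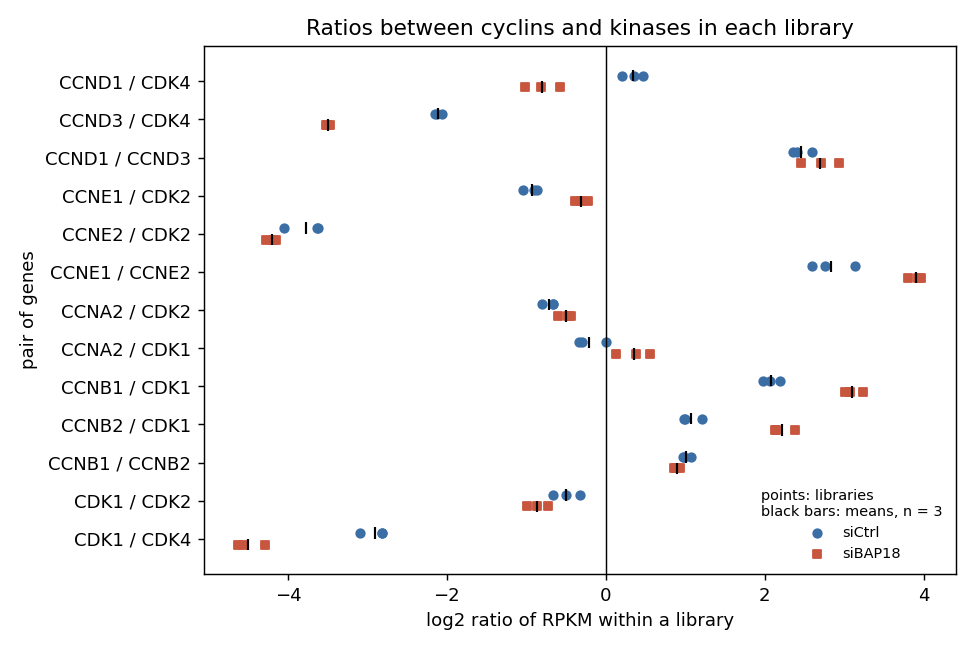
Log2 ratio of RPKM within each library for the 13 pairs of cyclins and kinases, with a point per library (circles siCtrl, squares siBAP18) and a black bar at each group's mean. The groups are separate in all pairs but CCND1 to CCND3, and the means lie farthest apart for CDK1 to CDK4 (−1.59).

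The genes around the 10 cyclins and kinases were read as 7 lists. Of the 5 other cyclins and kinases of the cycle, 3 were tested and CDK3, a kinase linked to the exit from quiescence, was the only one called (log2 fold change 0.45, adjusted p = 3.09e-05). For CDK6, the relative of CDK4, it was −0.07 (adjusted p = 0.613). CCND2, the third D-type cyclin, had counts of 0, 0 and 2 in siCtrl and 10, 8 and 4 in siBAP18, and CCNA1, the germ line cyclin A, had at most 8 counts in any library, so neither was tested. Among 30 cyclins, kinases and partners with roles in transcription and elsewhere, 10 rose and 6 fell, a mix near the background of all genes, with a median log2 fold change of 0.05. The 3 with the smallest adjusted p rose, namely CDK16 (0.89, adjusted p = 4.17e-10), CCNL1, a cyclin of RNA splicing (0.74, adjusted p = 1.57e-08), and CDK9, the kinase of transcription elongation (0.47, adjusted p = 1.03e-05). The count of those that fell was 3 without siCtrl replicate 3.

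Of the 8 genes of CDK inhibitors, 6 were tested, and 3 rose while 1 fell, beside 24.5% and 25.1% of all genes tested. CDKN1A, which encodes p21, an inhibitor of CDK2 that p53 induces, went from a mean of 39.0 to 130.5 CPM (log2 fold change 1.74, adjusted p = 7.3e-16). CDKN1B, which encodes p27, rose by 0.35 (adjusted p = 1.32e-04), and CDKN3, which encodes a phosphatase of CDK1 and CDK2 rather than an inhibitor of the p21 or p16 kind, went the other way (−0.56, adjusted p = 1.24e-05). CDKN2A and CDKN2B, the genes of p16 and p15, had at most 7 counts in any library and were not tested. Among 9 enzymes and subunits that act on the kinases, 4 rose and 2 fell, beside the same shares of all genes. PKMYT1, which phosphorylates CDK1 to hold it inactive, fell (−0.92, adjusted p = 5.34e-10), while WEE1, which acts on CDK1 in the same sense, rose (0.53, adjusted p = 4.17e-05), and so did RGCC, a regulator of CDK1 (1.53, adjusted p = 9.3e-07).

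Of 26 genes of the ubiquitin ligases that turn cyclins over, 6 fell, 5 rose and 15 did not pass, with a median log2 fold change of 0.02. FBXO31, an F-box protein that targets cyclin D1, rose (0.50, adjusted p = 2.55e-06), and CDC23 and CDC27, subunits of the anaphase-promoting complex, fell (−0.49, adjusted p = 3.19e-06, and −0.53, adjusted p = 9.06e-06). The count of ligase genes that rose was 1 without siCtrl replicate 1, siCtrl replicate 2 or siBAP18 replicate 1, and 2 without siCtrl replicate 3. The lists of transcription factors moved mostly down. Of 13 RB, E2F and DP genes, 9 fell and 1 rose (median −0.33), and 4 of those that fell passed −1, as did 3.74% of all genes. Among the 4 were E2F2 at −1.71 (adjusted p = 6.04e-09), E2F1 at −1.08 (adjusted p = 6.07e-08) and RBL1, the gene of the RB relative p107, at −1.02 (adjusted p = 6.07e-08). Of 10 genes of the DREAM core, B-MYB, FOXM1 and NF-Y, 6 fell and 1 rose (median −0.30). They included MYBL2, the gene of B-MYB (−0.99, adjusted p = 9.33e-11), RBBP4 (−0.41, adjusted p = 3.02e-05) and FOXM1 (−0.39, adjusted p = 4.23e-05). The counts of all these lists stand beside 25.1% of all genes that fell and 24.5% that rose, and no test of the lists against other genes was made.

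**Figure D5:**
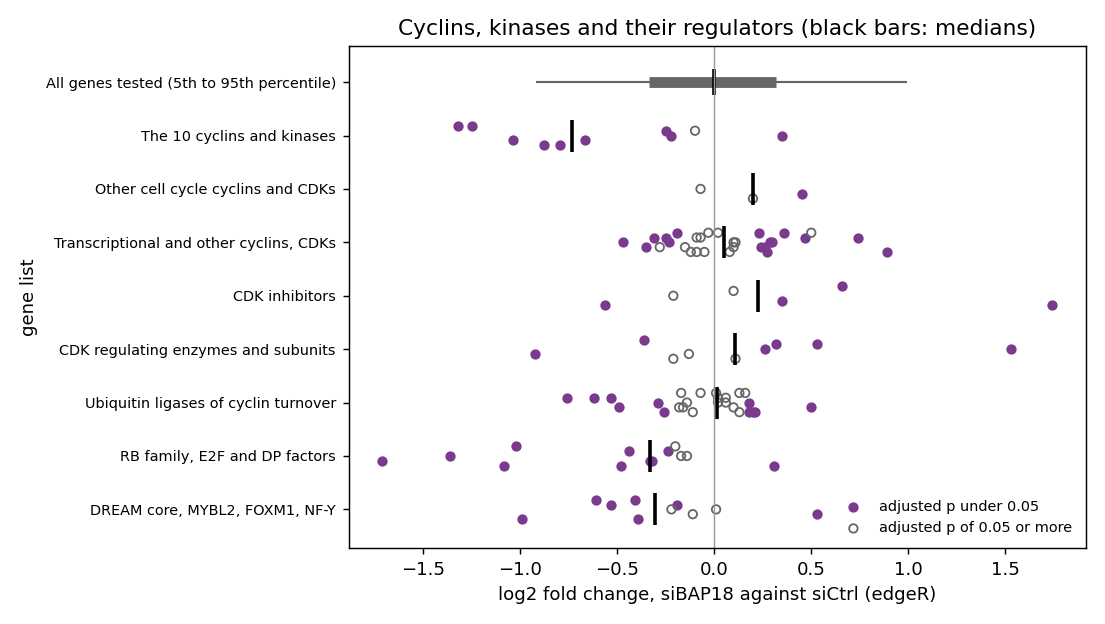
Log2 fold change of each tested gene among the 10 cyclins and kinases and in the 7 lists around them, filled where the adjusted p was under 0.05, with a black bar at each median and, on top, the 5th to 95th percentile (line) and 25th to 75th percentile (thick bar) of all genes tested. The medians are −0.73 for the 10 genes, −0.33 for the RB, E2F and DP list and −0.30 for the DREAM list, and the other 5 lists have medians between 0.02 and 0.23.

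CDK1 and CCND1 were set beside 7275 genes whose log2 CPM averaged 4 or more. The 10 cyclin and kinase genes were left out of that set before ranking. Profiles were compared by the Euclidean distance of their centred log2 CPM over the 6 libraries. The nearest profiles to CDK1 were those of TPD52 (distance 0.138, log2 fold change −1.17), R3HDM1 (0.147, −1.24) and ANXA13 (0.179, −1.19). The nearest to CCND1 were SERINC5 (0.0437, −0.80), SMIM14 (0.0549, −0.78) and CNOT2 (0.0731, −0.85). None of these is a cyclin or kinase, but the absence of the 10 genes was fixed in advance by leaving them out. With 6 libraries in 2 groups, the likeness is mostly the size of the group difference.

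An siRNA can also lower transcripts that match bases 2 to 8 of its guide in the 3′ UTR, so the annotated 3′ UTRs of the 10 genes (GENCODE 29, coding transcripts) were searched for the match to each duplex described for the study. For the 3 BAP18 duplexes the words were AATCACA (present in 13.7% of 19113 genes with a 3′ UTR), AAGATTC (10.9%) and ACTCAAC (7.02%). AATCACA was found in CCNA2 (2 of 2 transcripts) and CCNB2 (1 of 3), ACTCAAC in CCNA2 (2 of 2) and CCND1 (1 of 2), and AAGATTC in none of the 10. CDK1, CCNE2, CCND3, CDK2, CCNE1, CCNB1 and CDK4 held none of the 3 words, nor did any of the 10 genes hold TGTCACG, the word of the control duplex (2.92% of genes). The part of such matches in the changes of CCNA2, CCNB2 and CCND1 was not tested.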

How the data were processed

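Poly(A)-selected, strand-specific RNA-seq libraries of A549 cells, 3 per group, were sequenced by the authors as 150-base pairs. The deposited values are raw counts per gene symbol and RPKM, which the authors computed from those counts per kilobase of exon and scaled by library total. The aligner, the counter and its strand setting are not given in the sources used here. Gene positions in the table match GENCODE 29 on GRCh38. The labels call the libraries biological replicates. Counts were tested with edgeR 4.0.16 in R 4.3.3 (filterByExpr, TMM, glmQLFit and glmQLFTest, siBAP18 minus siCtrl, Benjamini-Hochberg over all 20776 genes tested). CPM values use TMM library sizes. Alternatives were DESeq2 1.42.0, limma 3.58.1 on log2(RPKM + 1) or log2(RPKM + 0.1), other filters and scalings, and each library left out. Pairs of genes were compared with an exact permutation test of RPKM ratios within libraries (scipy 1.17.1). The scripts were tested on simulated counts.

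The 10 genes, the lists and the pairs were chosen with earlier results of these data known. Named were all 10 genes, C17orf49, in each list up to 3 genes with the smallest adjusted p among those past 0.05 and genes at 0 to 3 counts throughout, the 3 genes nearest in profile to CDK1 and to CCND1, and genes sharing exonic bases with one of the 10. CDK6, CCND2, CCNA1, CDKN2A and CDKN2B, members of the lists, were named after their values were seen. Libraries held 42094524 to 56548620 counts. The SE and 95% intervals are for the log2 fold change and come from the edgeR test statistic, whose variance is pooled over both groups and moderated over genes. By chi-square per degree of freedom over genes, pairs of replicate libraries differed by 3.94 to 4.56 within siCtrl and by 10.1 to 23.3 within siBAP18. A comparison of protein sequences was planned and not run.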

Additional observations from a re-analysis of the deposited data

How the results depend on the processing

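Over 11 other settings and the 6 fits that leave out 1 library, all 10 cyclin and kinase genes kept their direction, and the calls of CDK1, CCNE2, CCND3, CDK2, CCND1, CCNA2, CCNB1 and CDK4 held. The call of CCNE1 was lost with limma on log2(RPKM + 1) without a filter (−0.21, adjusted p = 0.0606) and without siCtrl replicate 1, siCtrl replicate 3 or siBAP18 replicate 1 (log2 fold changes without 1 library −0.30 to −0.21), and the cause was not tested. The other scalings moved the median of all genes to at most 0.012. With limma on log2(RPKM + 1), with or without a filter, CDK1 alone of the 10 genes passed −1. In the edgeR fits that leave out 1 library, 2 to 3 of the 10 genes passed −1. Over all genes, 981 passed a log2 fold change of +1 and 777 passed −1. With at least 10 counts in every library 605 passed +1. With limma 133 passed −1 and 215 passed +1 on log2(RPKM + 1), 133 and 212 without the filter, and 434 and 475 on log2(RPKM + 0.1). A pseudocount draws low values together by its construction.

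Without a filter 2 other cell cycle cyclins and kinases rose, and 1 ligase gene rose. The ligase genes that rose were 3 with limma at either pseudocount and 1 with limma without a filter, and 1 to 7 in the edgeR fits without 1 library. The cyclins and kinases of other roles that fell were 3, 3 and 1 under the same limma settings, and 3 to 7 in the edgeR fits without 1 library. No RB, E2F or DP gene rose with limma without a filter (0 genes). The causes of these shifts were not tested. With 1 added to each RPKM the log2 differences were −1.28 for CCND3 to CDK4, 0.26 for CCNE1 to CCNE2, 0.83 for CCNB1 to CDK1, 0.95 for CCNB2 to CDK1 and −1.39 for CDK1 to CDK4, and CCNE2 to CDK2 reversed to 0.32.

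Same-numbered libraries of the 2 groups did not all deviate together (correlations of 0.0252, 0.12 and 0.048), so the numbers were not read as a pairing, and a fit with the replicate block gave the same calls for all 10 genes (CDK1 −1.25, adjusted p = 1.71e-14, and CCNB2 −0.10, adjusted p = 0.199). Over all genes 5496 fell and 5307 rose with the block, against 5216 and 5089 without it. The siCtrl libraries 2 and 3 correlated best with the siBAP18 library of their own number, and siCtrl library 1 did not. Depth limits CCNE2 most, with 59 to 211 counts a library.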
